A study of Mus musculus with 9 samples.

Results

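The genes described here are the mouse heat shock proteins and chaperones that were counted by RNA-seq in striatal cells of the Huntington disease (HD) knockin series. Members were chosen by symbol. This rule and the gene lists used below were set with earlier results of these data known. The members are the rows whose symbol starts with Hspa, Hspb, Hspd, Hspe, Hsph, Hsp90 or Dnaj, the TRiC subunits Cct2 to Cct8 and Tcp1, the BAG proteins Bag1 to Bag6, and Hsf1 and Hsf2, without pseudogenes. The rule found 90 of the 36410 rows, and 80 of these members passed the filter on low counts. The cells were the immortalized lines STHdhQ7/Q7 (control), STHdhQ7/Q111 (HD-het) and STHdhQ111/Q111 (HD-homo), derived from striatum of mouse embryos, with 3 libraries each and no treatment. The labels give knockin huntingtin (Htt) exon 1 for all lines, with 7 repeats in control cells and 111 repeats, heterozygous or homozygous, in HD-het and HD-homo cells. The study describes the control line as derived from wild-type embryos. With 1 line per genotype, effects of genotype and of the line cannot be told apart. The labels do not state that the 3 libraries of a line came from separate cultures, and p values then measure only the spread between these libraries.

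Chaperones bind unfolded or partly folded proteins, keep them from aggregating and let them fold. Hsp70 proteins do so in cycles of ATP hydrolysis that J proteins (the Dnaj genes) start and that nucleotide exchange factors such as Hsp110 and BAG proteins end. Hsp90 acts later on kinases and receptors, the ring-shaped chaperonins TRiC (cytosol) and Hspd1 with Hspe1 (mitochondria) enclose their clients, and small heat shock proteins hold unfolded proteins without ATP. Heat shock factor 1, encoded by Hsf1, turns on many of these genes under stress by binding inverted repeats of the bases GAA, the heat shock element. In HD the expanded polyglutamine stretch of huntingtin misfolds, and Hsp70, J proteins and TRiC are known to suppress its aggregation.

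The libraries held 29507665 to 41197931 reads counted on genes, the most in HD-homo replicate 2. Levels are given as CPM (counts scaled to a common library size) normalized by TMM, the floor of 3 counts lay between 0.0710 and 0.101 CPM, and floors cover counting error only. Htt itself was counted 2752 to 3470 times in the control libraries, 2041 to 2193 times in the HD-het libraries and 643 to 915 times in the HD-homo libraries. The markers of mature striatal neurons Drd1, Drd2 and Gad1 and the neuronal genes Rbfox3, Snap25 and Syt1 had 3 counts or fewer in each library of all 3 lines, although Foxp1 (87.9 to 179 CPM) brought the list of 12 striatal neuron markers to 90.3 to 184 CPM, and Map2, Tubb3 and Stmn2 the list of 6 neuronal genes to 91.8 to 171 CPM. Of 4 neural progenitor markers, which summed to 4157 to 6356 CPM, Vim alone gave 4117 to 5696 CPM. Nes stood at 486 to 548 CPM in control, 821 to 857 CPM in HD-het and 21.4 to 34.3 CPM in HD-homo libraries, Pax6 at 31.7 to 32.8, 47.2 to 49.6 and 0.0947 to 0.153 CPM, and Sox2 at 122 to 141, 79.1 to 85.2 and 4.98 to 5.79 CPM. A list of 5 fibroblast or smooth muscle markers, all of them detected in every line, summed to 12790 to 14740 CPM in HD-het cells, to 4617 to 5849 CPM in control cells and to 6224 to 6794 CPM in HD-homo cells. Col1a1 and Acta2 made up most of these sums in HD-het and control cells, and Col1a2 had another order, with 2.70 to 3.54 CPM in HD-het, 68.1 to 80.2 CPM in control and 1411 to 1556 CPM in HD-homo libraries. The part of such cells in the values below was not tested. In such bulk RNA, fewer cells of a kind and less RNA per cell cannot be told apart.

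The heat shock element was looked for in the promoters, as 2 inverted units spelled GAANNTTC or TTCNNGAA, each of which reads the same on both strands. RefSeq promoter windows of GRCm38.p6, from 250 bases before to 50 bases after a start, were matched for 73 of the 90 members. Of these, 20 (27.4%) held a match, against 17% of all 27025 genes with a window. A longer form, with both spellings overlapping to give 1 more inverted unit at the same spacing, was present in 4 members, Hspd1, Hspe1, Hsph1 and Dnajb6 (5.48%), against 0.662% of all genes. The sequences below are a selection from genes that carry differences described later, with Dnajb6 added for its overlapping units. Matches before the start in other such genes, among them Cct2, Dnaja4 and Dnajb4, are not shown. Tcp1, Cct3, Cct8, Hspa4l, Dnajb9 and Bag2, which also differed between lines, had a window without a match. Capitals mark the matches, and each sequence is read 5′ to 3′ on the strand of its gene:
Hspe1, chr1:55088053-55088082, plus strand: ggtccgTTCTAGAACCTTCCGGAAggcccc
Hspa1a, chr17:34972227-34972286, minus strand: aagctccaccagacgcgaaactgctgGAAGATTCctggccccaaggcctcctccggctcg
Hspa1b, chr17:34959309-34959368, minus strand: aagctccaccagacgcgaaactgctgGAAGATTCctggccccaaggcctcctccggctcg
Hsph1, chr5:149636351-149636380, minus strand: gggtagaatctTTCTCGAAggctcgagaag
Hspb1, chr5:135887786-135887845, plus strand: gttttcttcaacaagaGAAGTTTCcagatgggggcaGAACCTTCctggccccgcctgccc
Hspb6, chr7:30553155-30553214, plus strand: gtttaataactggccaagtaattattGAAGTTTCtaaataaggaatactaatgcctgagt
Cct5, chr15:31601862-31601891, minus strand: acagcggccgaTTCCAGAAgctactctgcg
Dnajb6, chr5:29735843-29735872, plus strand: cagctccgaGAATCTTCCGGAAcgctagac

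The 60 bases of Hspa1a and Hspa1b were identical, and 247 of the 250 bases before their starts (98.8%) were shared. Hspd1 and Hspe1 lie head to head, and the 3 overlapping matches of Hspe1, at chr1:55088059-55088076, are the same bases as those in the Hspd1 window on the other strand. The stretch shown for Hsph1 holds a single match before its start, and its overlapping matches, which lie after the start, are not shown. The elements of Hspa1a and Hspa1b began 104 bases before the start, those of Hspb1 117 bases, and that of Hspb6 120 bases before the second of its starts. A match is a description of these letters and not evidence of binding. The genes printed here did not share 1 pattern over the lines, as the values below show: Hspa1a, Hspa1b, Hsph1 and Cct5 were lowest in HD-het cells, Hspb1 and Hspb6 were highest there, and Dnajb6 was highest in HD-homo cells.

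Chaperone mRNA was lowest in HD-het cells. The 90 members together took 2.232% to 2.318% of all counts in the control libraries, 1.633% to 1.76% in the HD-het libraries and 2.08% to 2.173% in the HD-homo libraries, so that the HD-het libraries lay apart from the others. Their summed level was 22681 ± 386 CPM (SD, n = 3) in control cells, 16994 ± 773 CPM in HD-het cells and 21190 ± 784 CPM in HD-homo cells. Most of this difference lay in a few abundant families: the 8 TRiC subunits summed to 5684 ± 102 CPM in control cells and 3379 ± 274 CPM in HD-het cells, and the 3 Hsp90 genes to 5388 ± 130 and 3624 ± 177 CPM. The Hsp70 and Hsp110 genes summed to 6471 ± 111 CPM in control cells, 5471 ± 156 CPM in HD-het cells and 6442 ± 348 CPM in HD-homo cells. J proteins of classes B and C, in contrast, summed to slightly more in HD-het cells (552 ± 9.77 and 1583 ± 11.1 CPM) than in control cells (506 ± 5.92 and 1512 ± 15.4 CPM), and those of class A to less (618 ± 15.7 against 761 ± 13.0 CPM).

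**Figure D1:**
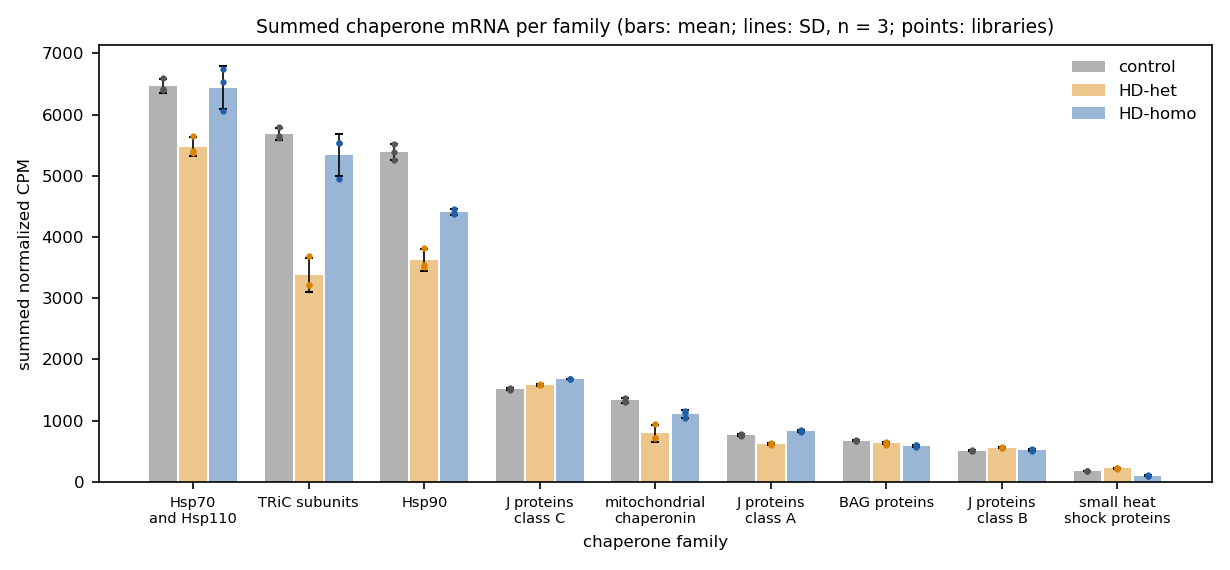
Summed normalized CPM (vertical axis) of 9 chaperone families (horizontal axis) in the 3 lines; bars are means, lines the SD of 3 libraries and points the libraries. The HD-het bars of the TRiC, Hsp90, Hsp70 and mitochondrial chaperonin families are the lowest, and the small heat shock proteins, at 99.1 CPM in HD-homo cells, are lowest in that line.

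Differences of single genes were tested with edgeR's quasi-likelihood test, two-sided, with Benjamini-Hochberg adjustment over all 13508 genes tested and an adjusted p under 0.05 as the threshold. Against control cells, 27 members (33.8% of the 80) were higher and 37 (46.2%) lower in HD-het cells, where 33.8% and 31.4% of all genes tested were. In HD-homo cells 16 members (20%) were higher and 24 (30%) lower than in control cells, against 29.6% and 28.9% of all genes tested, and 40 did not pass. Between the HD lines, 39 members (48.8%) were higher and 22 (27.5%) lower in HD-homo cells, against 36% and 35.6% of all genes tested. The median log2 fold change of the members was -0.10 in HD-het and 0.01 in HD-homo cells against control cells, beside 0.03 and 0.01 over all genes tested. HD-het was the line with the lowest mean for 43 of the 80 members (53.8%), against 35.9% of all genes tested. When the log2 fold change also had to reach 0.5, 15 members (18.8%) were higher and 23 (28.8%) lower in HD-het cells, against 21.8% and 16.4% of all genes tested. In HD-homo cells 3 (3.75%) were then higher and 11 (13.8%) lower than in control cells, against 16.2% and 16.3%, and 20 (25%) were higher and 13 (16.2%) lower than in HD-het cells, against 21.4% and 24.2%.

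**Figure D2:**
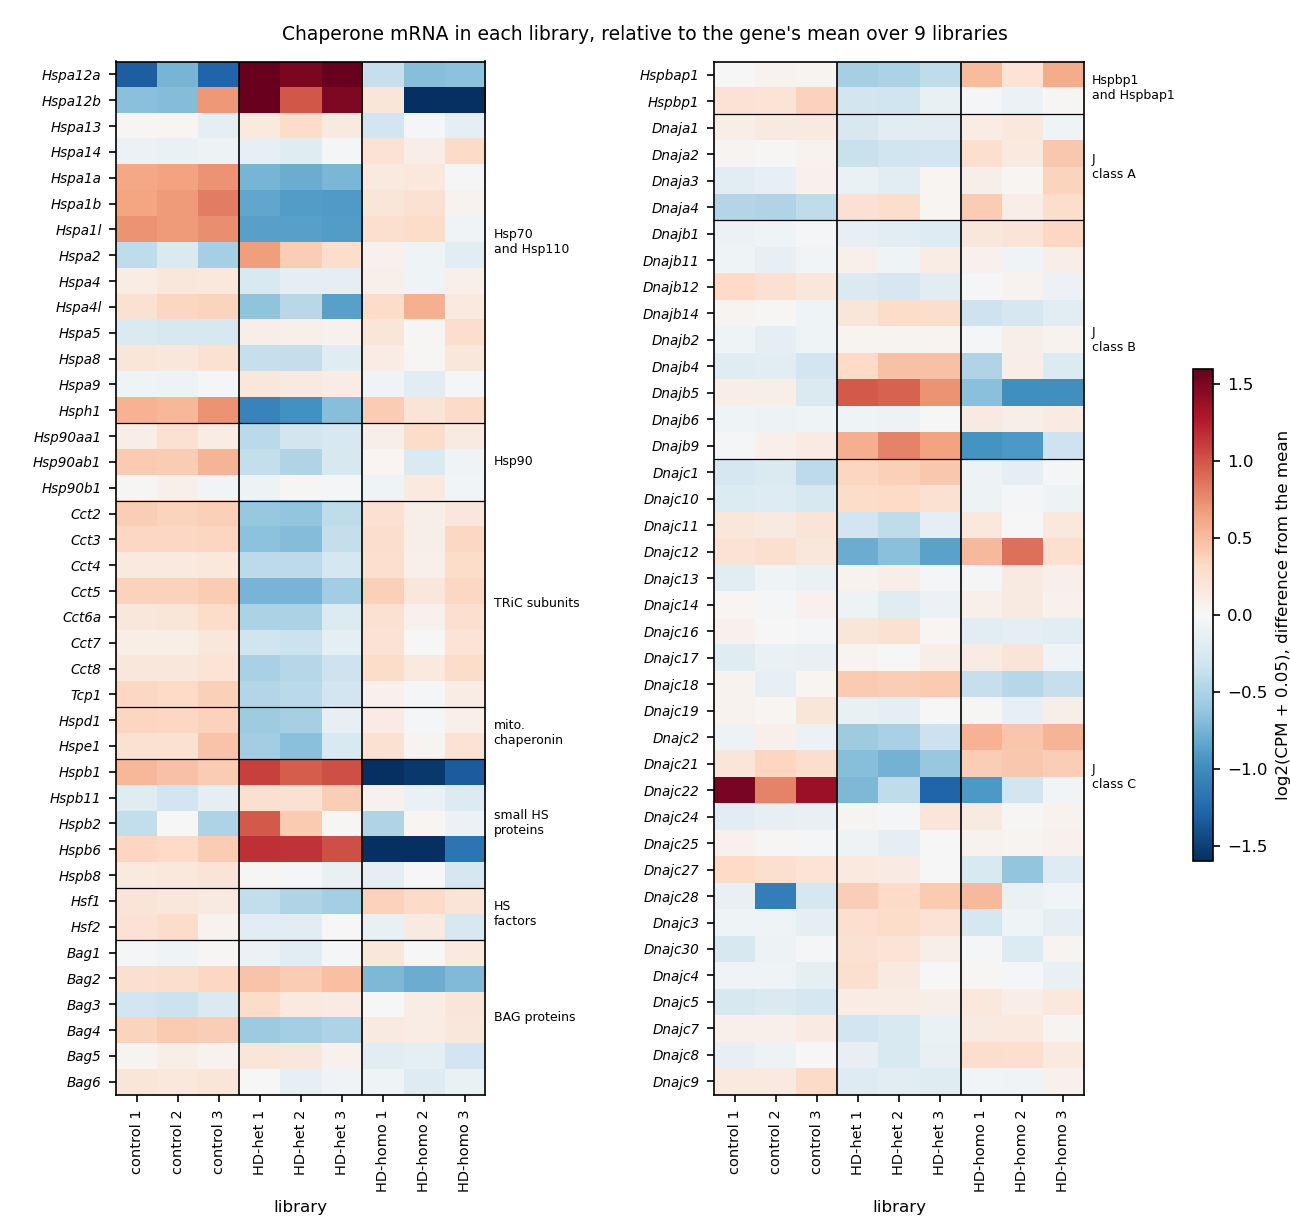
Difference of log2(CPM + 0.05) from the gene's mean over the 9 libraries, for 79 members with enough counts to be tested (rows, by family; Dnajc15 is left out because its control level is near 0) in each library (columns). Red is above and blue below the mean, colours do not deepen beyond the ends of the scale, and the HD-het columns are blue in the rows of all TRiC subunits and red in those of Hspb1, Hspb6 and Dnajb5.

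TRiC folds actin, tubulin and many other cytosolic proteins, and all 8 of its subunit genes were lower in HD-het cells than in control cells, with log2 fold changes between -1.06 (Cct5) and -0.40 (Cct7), where 31.4% of all genes tested were lower. Cct5 (GRCm38, chr15:31590800-31601804) stood at 785, 786 and 810 CPM in the control libraries, at 364, 363 and 413 CPM in the HD-het libraries and at 794, 693 and 768 CPM in the HD-homo libraries. The HD-het libraries lay below all others, while those of the other lines overlapped. Cct5 was 2.09-fold lower in HD-het cells than in control cells (log2 fold change -1.06, SE 0.07, adjusted p = 3.13e-07) and stood at -0.08 in HD-homo cells (95% interval -0.23 to 0.08). The other subunits gave -0.93 for Cct2, -0.91 for Cct3, -0.53 for Cct4, -0.63 for Cct6a and Cct8, and -0.74 for Tcp1 in HD-het cells, each with an adjusted p of at most 7.35e-05. Subunits of a complex that is assembled in fixed proportions thus differed in the size of the decrease, and the intervals of Cct5 (-1.22 to -0.91) and Cct7 (-0.57 to -0.23) did not meet. Compared with HD-het cells, all 8 were higher in HD-homo cells, by 0.42 (Cct7) to 0.98 (Cct5), where 36% of all genes tested were higher.

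In HD-homo cells Tcp1 and Cct2, of the 8 subunits, passed the threshold as lower than in control cells, where 28.9% of all genes tested did. Tcp1 stood at 851, 846 and 881 CPM in the control libraries and at 712, 667 and 733 CPM in the HD-homo libraries, without overlap (log2 fold change -0.29, SE 0.06, adjusted p = 0.00206). For Cct2 the log2 fold change was -0.20 (adjusted p = 0.0265), and the call was lost without any 1 of the 3 control libraries or without HD-homo replicate 2, where the adjusted p reached 0.076. Replicate 3 was the highest HD-het library and replicate 2 the lowest HD-homo library for each of the 8 subunits. The decrease of all 8 in HD-het cells stayed past the threshold in every alternative fit, including those without a library. Part of Tcp1 (20.6% of its exonic bases) and of Cct6a (18.4%) lies under exons of genes on the other strand, and the strand setting of the counting is not given in the sources used here.

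The mitochondrial chaperonin Hspd1 (Hsp60) and its lid Hspe1 (Hsp10), which fold imported proteins, were lower together in HD-het cells. Hspd1 (chr1:55077835-55088243) stood at 1108, 1099 and 1134 CPM in the control libraries, at 592, 606 and 802 CPM in the HD-het libraries and at 960, 859 and 923 CPM in the HD-homo libraries. The lines did not overlap, and HD-het replicate 3 was the library of its line nearest to the others. The log2 fold change in HD-het cells was -0.74 (SE 0.10, adjusted p = 7.85e-05) for Hspd1 and -0.80 (SE 0.11, adjusted p = 5.66e-05) for Hspe1. Hspe1 stood at 118, 109 and 146 CPM in the HD-het libraries against 205, 205 and 237 CPM in the control libraries. In HD-homo cells Hspd1 was lower than in control cells by -0.29 (adjusted p = 0.0335), a call that was lost without any single control library or without HD-homo replicate 2 or 3 (adjusted p up to 0.09), and Hspe1 did not pass (-0.15, adjusted p = 0.248). Both were higher in HD-homo cells than in HD-het cells, by 0.46 and 0.65. Hspd1 shares 39.7% and Hspe1 18.4% of its 50-base words with other annotated genes (for Hspd1 most with Hspd1-ps3), so that some of their reads could be counted elsewhere.

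**Figure D3:**
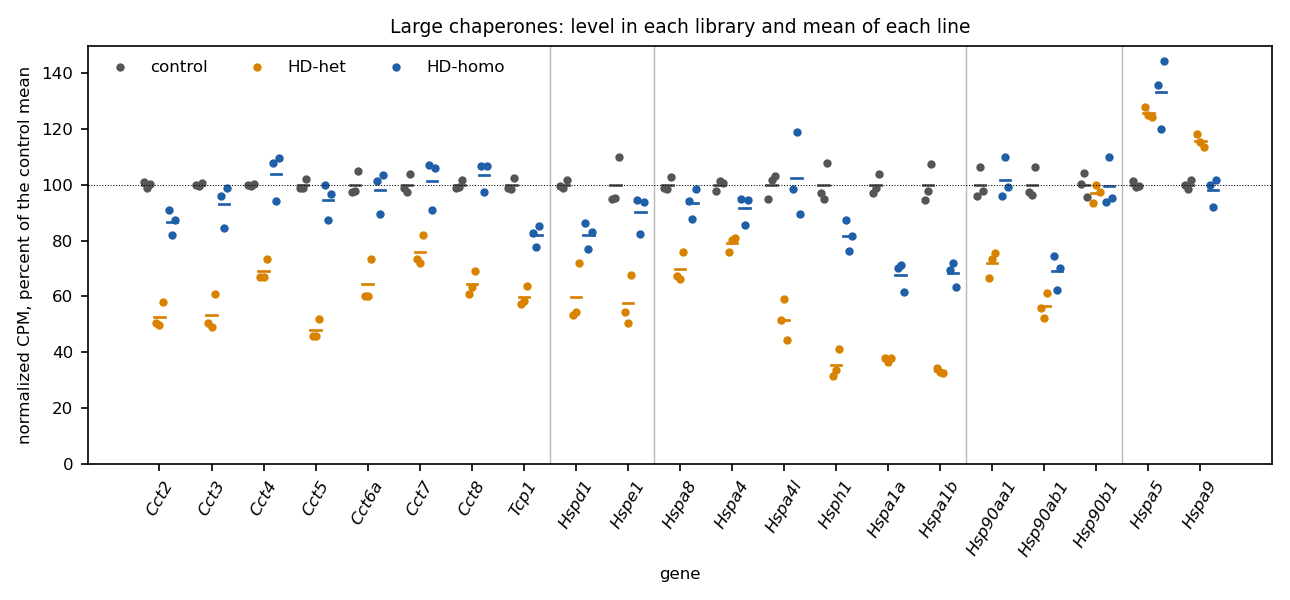
Level of 21 chaperone genes in each library as percent of the mean of the control libraries (vertical axis), with dots for libraries and short bars for the mean of each line; from left to right stand TRiC, the mitochondrial chaperonin, cytosolic Hsp70 and Hsp110, Hsp90, and the Hsp70 proteins of the endoplasmic reticulum (Hspa5) and mitochondria (Hspa9). HD-het means are lowest for Hspa1b (33.1%), Hsph1 (35.3%) and Hspa1a (37.3%). Among the TRiC subunits they are lowest for Cct5 (47.9%) and Cct2 (52.6%), while the HD-homo mean of Cct5 is 94.7%.

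The 14 Hsp70 and Hsp110 genes moved in both directions. In HD-het cells 6 were higher than in control cells (Hspa2, Hspa5, Hspa9, Hspa12a, Hspa12b and Hspa13) and 7 were lower, against 33.8% and 31.4% of all genes tested. Those lower were the cytosolic Hspa8, Hspa1a, Hspa1b and Hspa1l and the 3 genes of the Hsp110 type, Hspa4, Hspa4l and Hsph1. Hspa8 (Hsc70, chr9:40800984-40810087), the constitutive Hsp70 and the most abundant member per kilobase of exon in each line (1399 CPM per kb in control cells), stood at 3311, 3297 and 3438 CPM in the control libraries, at 2249, 2219 and 2542 CPM in the HD-het libraries and at 3150, 2932 and 3296 CPM in the HD-homo libraries. The HD-het libraries were below all others, and relative to control cells Hspa8 changed by -0.52 on the log2 scale in HD-het cells (SE 0.07, adjusted p = 8.99e-05) and stood at -0.10 in HD-homo cells, where it did not pass (adjusted p = 0.271). Hspa8 shares 38.6% of its 50-base words with other annotated genes.

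Hspa1a and Hspa1b encode the stress-inducible Hsp70. Hspa1a (chr17:34969190-34972156) stood at 38.3, 39 and 41.1 CPM in the control libraries, at 14.9, 14.3 and 14.9 CPM in the HD-het libraries and at 27.7, 28.2 and 24.3 CPM in the HD-homo libraries. The 3 lines were separate, in the order control, HD-homo, HD-het. Hspa1b (chr17:34956436-34959238) stood at 48.9, 50.6 and 55.6 CPM, at 17.7, 16.9 and 16.7 CPM, and at 36, 37.2 and 32.7 CPM in the same lines. The log2 fold changes of Hspa1a and Hspa1b were -1.42 (SE 0.07, adjusted p = 4.96e-08) and -1.59 (SE 0.08, adjusted p = 2.45e-08) in HD-het cells, and -0.56 and -0.55 in HD-homo cells. Over their length, 60.3% of the words of Hspa1a and 62.3% of those of Hspa1b are shared with other annotated genes, most with each other. Reads from these stretches cannot be told apart by sequence. Summing the counts of Hspa1a and Hspa1b, an alternative chosen after seeing the data, gave -1.52 and -0.56. Of the exonic bases of Hspa1a, 19.0% lie under a gene on the other strand. Hspa1l, the neighbour of both genes, changed by -1.61 in HD-het and -0.55 in HD-homo cells. However, 71.9% of its exonic bases lie under a gene on the other strand. Of its words, 9.57% are shared with other annotated genes, most with Hspa1a.

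Hsph1 (Hsp110, chr5:149614287-149636376), a nucleotide exchange factor that with Hsp70 and a J protein can dissolve aggregates, had the largest decrease in HD-het cells among the Hsp110 genes. Its level was 173, 170 and 193 CPM in the control libraries, 55.9, 60.1 and 73.2 CPM in the HD-het libraries and 156, 136 and 146 CPM in the HD-homo libraries. The HD-het libraries stood far below the rest, at a log2 fold change of -1.50 (SE 0.10, adjusted p = 2.70e-07) against control cells. The decrease in HD-homo cells, -0.29 (adjusted p = 0.0223), was lost without control replicate 3 (-0.23, adjusted p = 0.0885) or HD-homo replicate 2 (-0.24, adjusted p = 0.0675). Hspa4l fell by 0.96 in HD-het cells (adjusted p = 2.58e-05) and Hspa4 by 0.34 (adjusted p = 3.74e-04), and in HD-homo cells they stood at 0.03 and -0.12 without passing. Hsph1, Hspa4l and Hspa4 were all higher in HD-homo cells than in HD-het cells, by 1.21, 0.99 and 0.22.

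The Hsp70 genes of the organelles were not lower in HD-het cells. Hspa5 (BiP, chr2:34771970-34777547), the Hsp70 of the endoplasmic reticulum (ER), stood at 926, 906 and 912 CPM in the control libraries, at 1169, 1145 and 1139 CPM in the HD-het libraries and at 1243, 1097 and 1321 CPM in the HD-homo libraries. It was higher in both HD lines, by 0.33 (SE 0.07, adjusted p = 0.00139) and 0.42 (SE 0.07, adjusted p = 3.54e-04), and the HD lines overlapped each other. Hspa9, the mitochondrial Hsp70, was higher in HD-het cells, at 1137, 1110 and 1093 CPM against 960, 947 and 979 CPM (0.21, adjusted p = 0.00718), and HD-homo was lower than HD-het by -0.24 (adjusted p = 0.00285). Hspa13, a microsomal relative, gave 0.23 in HD-het cells (adjusted p = 0.0229), which was lost without control replicate 3 (adjusted p = 0.0968) or HD-het replicate 2 (adjusted p = 0.0882). Hspa14, which acts at the ribosome, was higher in HD-homo cells than in both other lines, by 0.31 and 0.33, and stood at -0.02 between HD-het and control cells. Of its exonic bases, 17.9% lie under another gene on the same strand.

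Hspa12a, a distant relative of Hsp70 that is known from brain, had the largest fold change of the family that rests on more than a few counts. It stood at 0.622, 0.952 and 0.642 CPM in the control libraries, at 5.70, 4.73 and 5.75 CPM in the HD-het libraries and at 1.26, 0.995 and 1.01 CPM in the HD-homo libraries. The HD-het libraries lay 7.30-fold above control cells (log2 fold change 2.85, SE 0.19, adjusted p = 3.42e-07), and the HD-homo value, 0.54, did not pass (adjusted p = 0.0541). Its relative Hspa12b was near the floor, with 0.305 to 0.508 CPM in HD-het and at most 0.237 CPM in control cells, and its call in HD-het cells (1.83, adjusted p = 0.0317) was lost with the Wald test of DESeq2 (adjusted p = 0.0847), without control replicate 1 or 2, or without HD-het replicate 1 or 3 (adjusted p up to 0.114). Hspa12b, with 0 counts in HD-homo replicates 2 and 3, was lower in HD-homo cells than in HD-het cells (-3.09, adjusted p = 0.00407), a value that ran from -6.86 to -2.42 over the alternatives. Hspa2, a form best known from testis, was 0.85 higher in HD-het cells (adjusted p = 1.73e-04) and stood at 0.33 in HD-homo cells, which did not pass (adjusted p = 0.0509) but did in 9 of 16 alternatives (lowest adjusted p = 0.0263).

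The cytosolic Hsp90 genes fell in HD-het cells, and the ER form did not pass in any comparison. Hsp90ab1 (chr17:45567775-45573271), the constitutive form, stood at 3126, 3085 and 3411 CPM in the control libraries, at 1786, 1676 and 1962 CPM in the HD-het libraries and at 2391, 1993 and 2251 CPM in the HD-homo libraries. The lines were separate, and Hsp90ab1 was lower by -0.83 on the log2 scale in HD-het cells (SE 0.09, adjusted p = 8.57e-06) and by -0.54 in HD-homo cells (SE 0.09, adjusted p = 2.68e-04). Hsp90aa1, the more inducible form, stood at 1136, 1258 and 1156 CPM in the control libraries, at 788, 867 and 893 CPM in the HD-het libraries and at 1137, 1301 and 1175 CPM in the HD-homo libraries. Only the HD-het libraries stood apart, with -0.48 (SE 0.07, adjusted p = 1.76e-04), and HD-homo cells gave 0.03 (95% interval -0.14 to 0.19). In HD-homo cells the constitutive form was lower and the inducible form did not pass. Hsp90b1 (Grp94), the ER form, gave -0.04 and 0.00, with 95% intervals of -0.20 to 0.11 and -0.16 to 0.15. Hsp90aa1 shares 47.5% of its words with other annotated genes.

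Among the small heat shock proteins, Hspb1 and Hspb6 moved in opposite directions in the HD lines. Hspb1 (Hsp25, chr5:135887919-135889563), which protects actin filaments and holds unfolded proteins, stood at 37, 35.1 and 33.8 CPM in the control libraries, at 54.5, 49.7 and 51.9 CPM in the HD-het libraries and at 8.25, 8.69 and 10.1 CPM in the HD-homo libraries. Hspb6 (Hsp20, chr7:30552178-30555443), known from smooth muscle and heart, stood at 48, 47.2 and 49.8 CPM, at 84.5, 84.4 and 77 CPM, and at 12.4, 11.9 and 16.8 CPM in the same lines. For both genes the 3 lines were fully separate, in the order HD-het, control, HD-homo. Hspb1 was 1.48-fold higher in HD-het cells (log2 fold change 0.56, SE 0.08, adjusted p = 7.63e-05) and 3.92-fold lower in HD-homo cells (-1.97, SE 0.09, adjusted p = 6.03e-09) than in control cells. Hspb6 was 1.70-fold higher (0.76, SE 0.10, adjusted p = 6.75e-05) and 3.53-fold lower (-1.82, SE 0.11, adjusted p = 1.07e-07). Between the HD lines Hspb1 and Hspb6 differed by 5.78-fold and 5.99-fold. Of the 4 neural progenitor markers, Nes and Pax6 had the same order over the lines. Sox2 was highest in control libraries, at 122 to 141 CPM against 79.1 to 85.2 CPM in HD-het libraries. The sum of the 4, mostly Vim, was also highest there, at 5894 to 6356 CPM. It was 5315 to 5819 CPM in HD-het and 4157 to 4574 CPM in HD-homo libraries. Of the fibroblast or smooth muscle markers, Acta2 had the order of Hspb1 and Hspb6. Its level was 2056 to 2384 CPM in control, 4931 to 5639 CPM in HD-het and 57.7 to 116 CPM in HD-homo libraries. Col1a2 had the reverse order, and Col1a1 and Pdgfrb stood higher in HD-homo libraries than in control libraries without overlap. The sum of that list was not lower in HD-homo cells than in control cells, and the part of either list in the values of Hspb1 and Hspb6 was not tested. Hspb1 shares 48.8% of its words with other annotated genes, mostly Hsp25-ps1.

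The other small heat shock proteins that were tested changed less than Hspb1 and Hspb6 in HD-homo cells. This did not hold in HD-het cells, where the log2 fold change of Hspb2 (0.85) exceeded those of Hspb1 (0.56) and Hspb6 (0.76). Hspb8 (Hsp22), the partner of Bag3, was lower in both HD lines, by -0.22 in HD-het cells (adjusted p = 0.0169) and -0.31 in HD-homo cells (adjusted p = 0.00271), and the HD-het call was lost without control replicate 3 (adjusted p = 0.0533) or HD-het replicate 3 (adjusted p = 0.0598). Hspb11, which despite its symbol is a protein of intraflagellar transport, was 0.52 higher in HD-het cells (adjusted p = 8.18e-04) and stood at 0.14 in HD-homo cells. Of the exonic bases of Hspb2, 30.2% lie under Cryab on the other strand, and Cryab stood at 15.1 to 71.4 CPM over the libraries. Hspb2, with 0.575 to 1.69 CPM in any library, was 0.85 higher in HD-het cells (adjusted p = 0.0239), where replicate 1 stood at 1.69 and replicate 3 at 0.839 CPM. That call was lost without HD-het replicate 1 (0.53, adjusted p = 0.13), control replicate 1 (0.79, adjusted p = 0.0737) or control replicate 3 (0.74, adjusted p = 0.0793), and its decrease from HD-het to HD-homo cells (-0.72, adjusted p = 0.0383) was lost in 7 of 16 alternatives, among them without HD-het replicate 1 (-0.40, adjusted p = 0.217). Hspb7, a muscle form, did not pass the filter, with 14, 10 and 2 counts in the HD-het libraries and at most 2 counts in every other library. Hspb3 had 3 counts or fewer in each library, and Hspb9 had 0 in all 9.

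**Figure D4:**
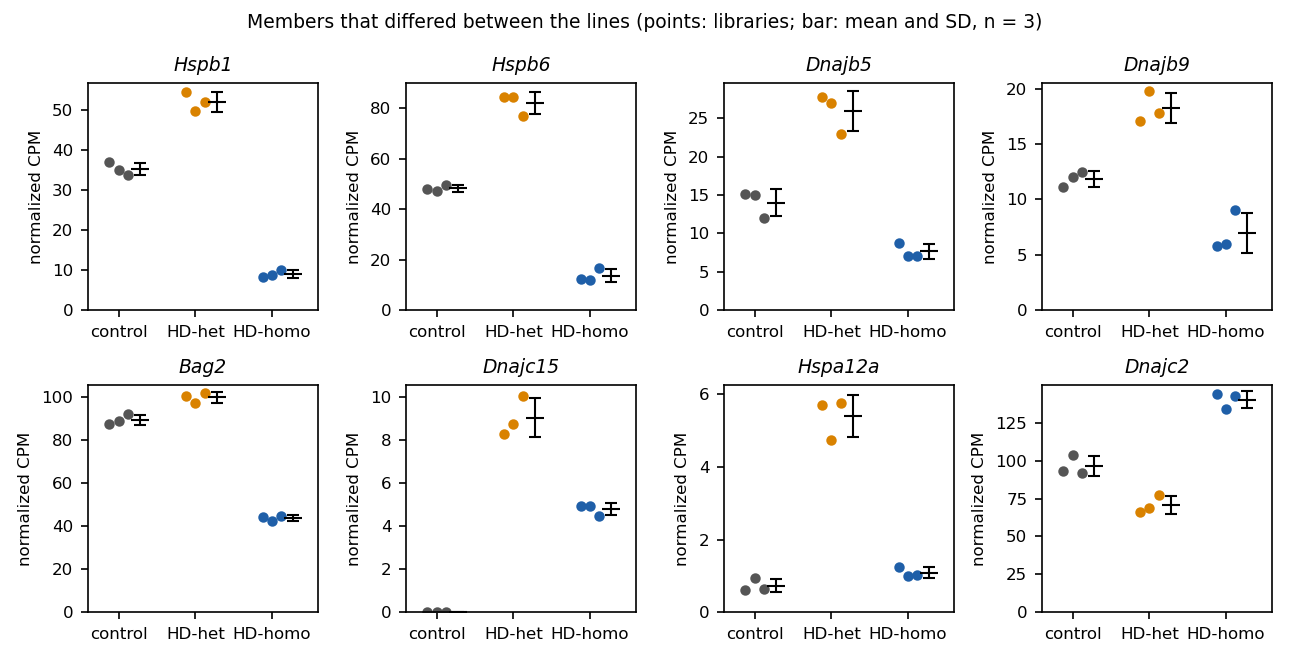
Normalized CPM (vertical axes, from 0) of 8 members in the 3 lines; points are libraries and the bar beside them gives the mean and SD of 3 libraries. Hspb1, Hspb6, Dnajb5, Dnajb9 and Bag2 are highest in HD-het and lowest in HD-homo cells, Dnajc2 has the reverse order, Dnajc15 is at or near 0 in control cells, and Hspa12a is high only in the HD-het libraries.

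Hsf1, the factor that turns on heat shock genes, was lower in HD-het cells. Its mRNA (chr15:76477422-76501913) stood at 75, 73.7 and 71.6 CPM in the control libraries, at 49.6, 46.6 and 44.3 CPM in the HD-het libraries and at 83.4, 80.5 and 74.8 CPM in the HD-homo libraries. The HD-het libraries lay below all others and those of control and HD-homo cells overlapped. Hsf1 changed by -0.65 on the log2 scale in HD-het cells (SE 0.06, adjusted p = 5.00e-06) and 0.12 in HD-homo cells (95% interval -0.02 to 0.25, adjusted p = 0.131), and HD-homo was 0.76 above HD-het (adjusted p = 8.19e-07). HSF1 protein is regulated largely after translation, and these counts do not measure its activity. Hsf2, a related factor with roles in development, gave -0.31 in HD-het cells (adjusted p = 0.0215) and -0.26 in HD-homo cells (adjusted p = 0.0511), and the HD-het call was lost without control replicate 1 or 2 or without HD-het replicate 1 or 2 (adjusted p up to 0.082).

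A list of 23 genes known to be induced by heat shock, 15 of which are members, was lower in HD-het cells for 17, higher for 2 (Hspb1 and Bag3) and not past the threshold for 4. In HD-homo cells 10 were lower, 3 higher and 10 did not pass. Of all genes tested, 31.4% were lower and 33.8% higher in HD-het cells, and 28.9% were lower and 29.6% higher in HD-homo cells. The median log2 fold changes of this list were -0.48 and -0.13, beside 0.03 and 0.01 over all genes tested. The members of the list did not move as 1 group, since Hspb1 rose in HD-het cells and fell most in HD-homo cells, and Bag3 rose in both.

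BAG proteins release clients from Hsp70 and couple it to other machinery. Bag3, which directs Hsp70 clients to autophagy, was higher in both HD lines, at 85, 77.1 and 75.6 CPM in the HD-het and 69.1, 74.9 and 78.9 CPM in the HD-homo libraries against 55.9, 54.3 and 58.9 CPM in the control libraries (0.49, adjusted p = 8.19e-05, and 0.40, adjusted p = 4.65e-04). Bag2, an inhibitor of the ubiquitin ligase CHIP that works with Hsp70, stood at 87.5, 88.9 and 92.1 CPM in the control libraries, at 100.4, 97 and 102 CPM in the HD-het libraries and at 44.4, 42.3 and 44.7 CPM in the HD-homo libraries. Its decrease in HD-homo cells was 2.04-fold (log2 fold change -1.03, SE 0.05, adjusted p = 2.51e-08). The small increase in HD-het cells (0.16, adjusted p = 0.0197) was lost without control replicate 1 or 2 or HD-het replicate 1 or 3, with an adjusted p between 0.0523 and 0.085. Bag4 was lower in both HD lines and lowest in HD-het cells, at 28.1, 28.9 and 29.8 CPM in HD-het cells against 54, 56.3 and 55.2 CPM in control and 46.5, 45.7 and 47.6 CPM in HD-homo cells (-0.93, adjusted p = 1.39e-07, and -0.24, adjusted p = 0.00276), although 21.4% of its exonic bases lie under a gene on the other strand. Bag6, which receives tail-anchored proteins at the ribosome, was lower in both lines (-0.25 and -0.32), Bag5 was lower in HD-homo cells than in control (-0.27, adjusted p = 0.00342) and HD-het cells (-0.36, adjusted p = 3.57e-04), and Bag1 passed only between the HD lines (0.21, adjusted p = 0.0117, lost without HD-het replicate 2 at an adjusted p of 0.0531).

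Of the 45 J protein genes 38 were tested. Of these, 15 were higher, 11 lower and 12 not past the threshold in HD-het against control cells, and 12 were higher, 8 lower and 18 not past it in HD-homo cells. These counts stand beside 33.8% higher and 31.4% lower of all genes tested in HD-het cells, and 29.6% and 28.9% in HD-homo cells. Cytosolic J proteins, which supply Hsp70 with clients, moved both ways in HD-het cells. Dnaja1 stood at -0.33 (adjusted p = 0.00104), Dnaja2 at -0.37 (adjusted p = 6.20e-04) and Dnajc7, which also binds Hsp90, at -0.31 (adjusted p = 0.00104) in HD-het cells. In HD-homo cells Dnaja2 was higher than in control cells, at 389, 358 and 435 CPM against 331, 325 and 336 CPM (0.25, adjusted p = 0.00786), and 251, 258 and 260 CPM were measured in HD-het cells. Dnajb1 (Hdj1), the J protein induced by heat, was 0.30 higher in HD-homo cells (adjusted p = 7.37e-04) and stood at -0.11 in HD-het cells (adjusted p = 0.12). Dnajb6, known to hold polyglutamine peptides in solution, was 0.19 higher in HD-homo cells, at 111, 108 and 111 CPM against 96.6, 95.4 and 96.2 CPM (adjusted p = 0.00569), and stood at 0.03 in HD-het cells. Dnajb6 shares 17.7% of its words with other annotated genes. Dnajb2, enriched in neurons, gave 0.14 in both lines and did not pass (adjusted p = 0.0928 and 0.0984). Dnaja4 was higher in both lines, by 0.64 and 0.72, but 44.6% of its exonic bases lie under Wdr61 on the other strand.

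Dnajc15 (chr14:77820681-77875125), a J protein of the inner mitochondrial membrane, was counted 0, 1 and 0 times in the control libraries, 295, 288 and 336 times in the HD-het libraries and 162, 210 and 150 times in the HD-homo libraries. In CPM these were 8.32, 8.78 and 10.1 in HD-het cells and 4.97, 4.97 and 4.47 in HD-homo cells, so that no library of 1 line reached another line. Against the floor of 3 counts per control library the level in HD-het cells was at least 95.7-fold higher, and that in HD-homo cells at least 50.8-fold (adjusted p = 2.70e-09 and 4.69e-09). Between the HD lines it was lower in HD-homo cells by -0.91 (SE 0.13, adjusted p = 8.88e-05). Of the 6 J proteins of mitochondria that were listed, 3 were higher and 1 lower in HD-het cells, against 33.8% and 31.4% of all genes tested, and 1, Dnajc15, was higher in HD-homo cells, against 29.6%. Dnajc11, a subunit of the machinery that shapes the inner membrane, was lower in HD-het cells (-0.46, adjusted p = 2.60e-04), and Dnajc28 was 0.86 higher there (adjusted p = 0.0176, lost without control replicate 2 at 0.59, adjusted p = 0.0726).

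Of the 11 listed J proteins of the ER, 6 were higher, 2 lower and 3 not past the threshold in HD-het cells, against 33.8% higher and 31.4% lower of all genes tested. In HD-homo cells 2 were higher, 4 lower and 5 not past it, against 29.6% and 28.9%. Dnajb9 (ERdj4, chr12:44205559-44210326), which is induced by the unfolded protein response and assists BiP, stood at 11.1, 12 and 12.5 CPM in the control libraries, at 17.1, 19.8 and 17.9 CPM in the HD-het libraries and at 5.82, 6.01 and 9.07 CPM in the HD-homo libraries. The lines were separate, with HD-homo replicate 3 nearest to control cells, and the log2 fold changes were 0.62 (SE 0.15, adjusted p = 0.00294) and -0.77 (SE 0.15, adjusted p = 0.00116). Its partner Hspa5 was higher in both lines. Dnajc3 (p58IPK), which restrains kinases that slow translation, was 0.36 higher in HD-het cells (adjusted p = 3.19e-04) and stood at -0.06 in HD-homo cells. Dnajc1 (ERdj1) was 0.69 higher in HD-het cells (adjusted p = 4.92e-06) and 0.22 in HD-homo cells (adjusted p = 0.017), a call lost without control replicate 3 (0.16, adjusted p = 0.0723) or HD-homo replicate 3 (adjusted p = 0.0528). Dnajb12, an ER membrane protein, was lower in both lines (-0.48 and -0.27). Dnajc18 was higher in HD-het (0.42) and lower in HD-homo cells (-0.39).

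**Figure D5:**
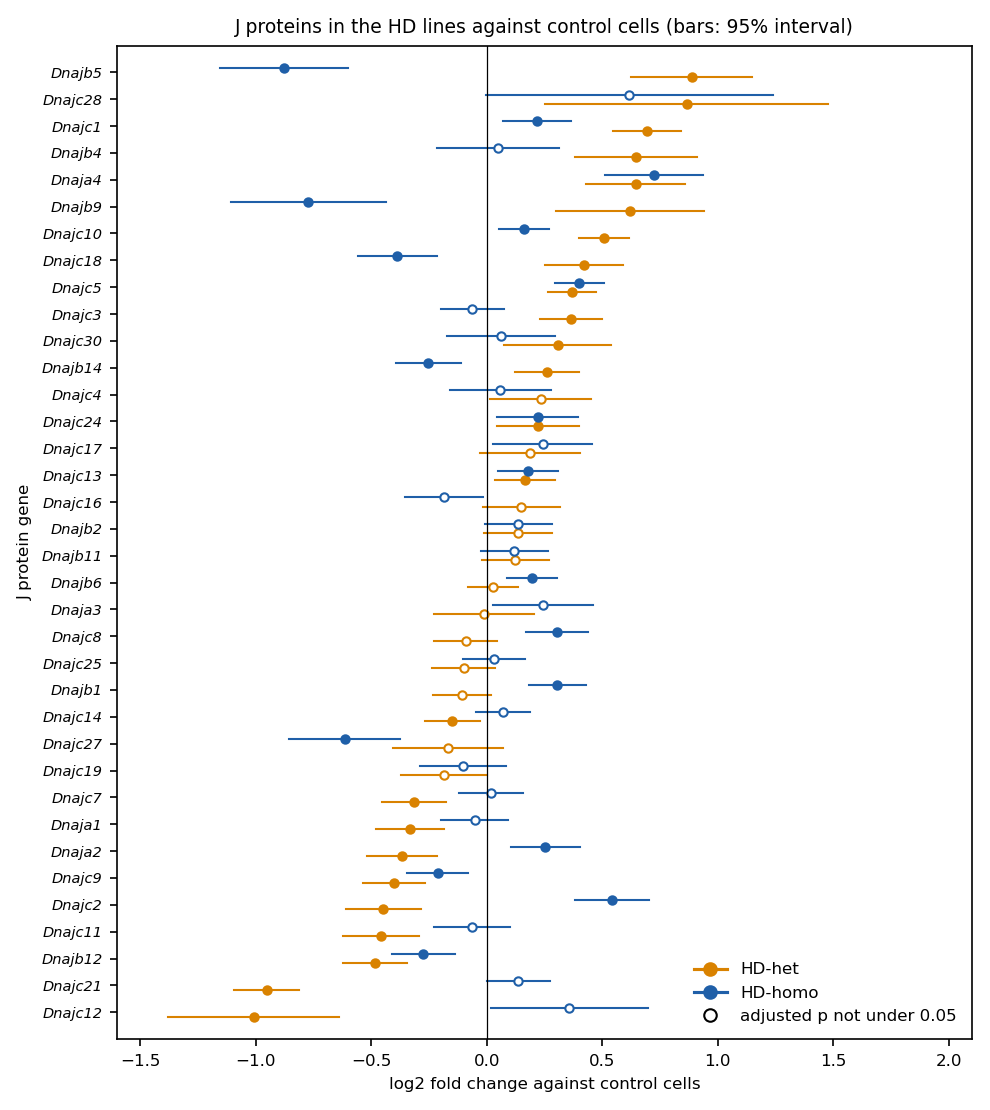
Log2 fold change of 36 J protein genes in HD-het and HD-homo cells against control cells (horizontal axis) with the 95% interval as a line; filled circles have an adjusted p under 0.05. Dnajc15, higher in both HD lines, and Dnajc22, lower in both, reach beyond the axis and are left out. Dnajb5, Dnajb9, Dnajc18 and Dnajb14 lie right of 0 in HD-het and left of 0 in HD-homo cells, whereas Dnajc2 and Dnaja2 lie on opposite sides in the reverse order.

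Of 5 J proteins of the nucleus and ribosome, 3 were lower and none higher in HD-het cells by the same test, against 31.4% and 33.8% of all genes tested. Dnajc2 (zuotin, chr5:21757267-21785251), which works with Hspa14 on nascent chains at the ribosome, stood at 92.9, 104 and 91.9 CPM in the control libraries, at 65.9, 68.7 and 77.1 CPM in the HD-het libraries and at 144, 134 and 143 CPM in the HD-homo libraries. The lines were separate, with log2 fold changes of -0.45 (SE 0.07, adjusted p = 2.53e-04) in HD-het and 0.54 (SE 0.07, adjusted p = 6.83e-05) in HD-homo cells. Hspa14 itself was higher in HD-homo cells too, and did not pass in HD-het cells. Dnajc21, which acts in the maturation of the large ribosomal subunit, stood at 59.5, 66.4 and 63.3 CPM in the control libraries, at 32.6, 30.8 and 34.4 CPM in the HD-het libraries and at 68.8, 70.7 and 68.6 CPM in the HD-homo libraries (-0.95, adjusted p = 3.14e-07 in HD-het cells, and 0.14, adjusted p = 0.0804 in HD-homo cells).

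Of the remaining J proteins, Dnajb5 (chr4:42949814-42959425) had the widest difference between the HD lines. It stood at 15.1, 15 and 12 CPM in the control libraries, at 27.8, 27 and 23 CPM in the HD-het libraries and at 8.80, 7.08 and 7.10 CPM in the HD-homo libraries. The lines were separate, with 0.89 (SE 0.12, adjusted p = 5.97e-05) and -0.88 (SE 0.13, adjusted p = 1.19e-04) against control cells and -1.76 between the HD lines. Dnajb4, its near relative, was 0.65 higher in HD-het cells (adjusted p = 6.39e-04) and stood at 0.05 in HD-homo cells, where its libraries ran from 43.1 to 64.9 CPM. Dnajc5 (cysteine string protein), which keeps synaptic vesicle proteins folded, was higher in both lines, at 186, 186 and 183 CPM in HD-het and 192, 183 and 192 CPM in HD-homo cells against 143, 145 and 141 CPM (0.37, adjusted p = 4.43e-05, and 0.40, adjusted p = 2.72e-05). Dnajc12, a co-chaperone of aromatic amino acid hydroxylases, stood at 2.23, 2.44 and 2.13 CPM in HD-het against 4.57, 4.67 and 4.43 CPM in control cells (-1.01, adjusted p = 2.82e-04), and at 5.61, 7.20 and 4.65 CPM in HD-homo cells. Dnajc27 (Rbj), a small GTPase with a J domain, was lower in HD-homo cells (-0.61, adjusted p = 5.71e-04). Dnajc22 had the largest decrease of the J proteins tested in HD-het (-2.40, adjusted p = 3.01e-04) and HD-homo cells (-1.89, adjusted p = 0.00111). It stood under 1 CPM in every library and was not followed over the alternatives. Dnajb3, Dnajb7, Dnajb13, Dnajc5b and Dnajc6 had 3 counts or fewer in each library, and Dnajb8 and Dnajc5g had 0 in all 9, which allows no statement below the floor.

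Hspbp1 and Hspbap1 carry the prefix of the small heat shock proteins by spelling only. Hspbp1, a nucleotide exchange factor of Hsp70, was lower in HD-het (-0.52, adjusted p = 8.96e-05) and HD-homo cells (-0.31, adjusted p = 0.00378), and its difference between the HD lines (0.21, adjusted p = 0.0247) was lost in 5 of 16 alternatives, those without HD-het replicate 1 or 2, without HD-homo replicate 1 or 3 and with only the 2 lines compared (adjusted p up to 0.0947). Hspbap1, a protein that binds Hspb1, stood at 18.3, 19 and 18.8 CPM in the control libraries, at 12.6, 12.9 and 13.8 CPM in the HD-het libraries and at 25.8, 21.2 and 27.5 CPM in the HD-homo libraries (-0.51, adjusted p = 7.31e-04, and 0.41, adjusted p = 0.00334). Its order over the lines was the reverse of that of Hspb1.

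The genes that work with the members were counted from other lists, to be read against all genes tested, of which 33.8% were higher and 31.4% lower in HD-het cells and 29.6% and 28.9% in HD-homo cells. Of 15 co-chaperones of Hsp90, 9 were lower and 2 higher in HD-het cells, and 4 were lower and 2 higher in HD-homo cells. The extremes in HD-het cells were Ppid, a prolyl isomerase that binds Hsp90 (-1.15, adjusted p = 2.44e-07), and Fkbp5, which is induced by glucocorticoids (0.89, adjusted p = 9.63e-05), and in HD-homo cells Unc45a, a chaperone of myosin (-0.56), and Tomm34 (0.32). Of 11 Hsp70 co-chaperones and relatives, 5 were higher and 4 lower in HD-het cells, from Hscb (0.64) to St13 (Hip, -0.75), and 1 was higher (Gak, 0.14) and 3 lower in HD-homo cells. Of 10 genes of prefoldin, which hands clients to TRiC, and of other TRiC cofactors, 2 were higher and 3 lower in HD-het cells and 1 was higher and 1 lower in HD-homo cells. Pfdn5 fell by 0.84 in HD-het cells and Pdcl3 rose by 0.50, while in HD-homo cells Pfdn4 rose by 0.31 and Pdcl3 fell by 0.38.

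Of 19 ER chaperones and folding enzymes, 8 of them members, 14 were higher and 1 lower in HD-het cells (median log2 fold change 0.33), against 33.8% and 31.4% of all genes tested, and 7 were higher and 4 lower in HD-homo cells (median -0.06), against 29.6% and 28.9%. The extremes were Dnajc1 and Creld2 (-0.54) in HD-het cells, and Hspa5 and Dnajb9 in HD-homo cells. Of the same list, 13 of the 19 were lower in HD-homo cells than in HD-het cells, against 35.6% of all genes tested. A list of 19 chaperones and proteases of mitochondria also holds members described above, among them Dnajc15 and Hspe1, its extremes in HD-het cells. Of the 19, 6 were higher and 9 lower in HD-het cells and 2 were higher and 6 lower in HD-homo cells, against the same shares. Grpel2, a nucleotide exchange factor of Hspa9, stood at -0.53 in HD-homo cells. Among 11 further chaperones and heat shock factors, 9 were tested, of which 3 were higher and 6 lower in HD-het cells and 1 was higher and 6 lower in HD-homo cells. Hsf4, a factor known from the lens, stood at 0.0338 to 0.268 CPM in control, 0.959 to 1.14 CPM in HD-het and 3.37 to 4.97 CPM in HD-homo libraries (2.78 and 4.82 on the log2 scale). Cryab, the small heat shock protein next to Hspb2, was lower in both lines (-1.21 and -1.66), and Clu, a secreted chaperone, was 1.57 higher in HD-het and 1.81 lower in HD-homo cells on the log2 scale, in the order of Hspb1 and Hspb6.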

How the data were processed

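Poly(A)-selected RNA of 9 libraries was prepared with a directional kit. The deposited table holds whole-number counts per gene symbol, not normalized. The submitters' processing notes name cutadapt, Bowtie 1.1.2, RSEM 1.3.0 and DESeq2 with GRCm38.p5 and mm10. Whether the counts are rounded RSEM estimates and how strand was used is not given in the sources used here.

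edgeR 4.0.16 (R 4.3.3) was used on the counts. filterByExpr (minimum count 10) kept 13508 genes, libraries were normalized by TMM (factors 0.984 to 1.03), and all 9 libraries entered 1 quasi-likelihood fit with the line as the only factor. The SE is the log2 fold change divided by the root of F, and 95% intervals use the degrees of freedom of the test. The pipeline was run on simulated data with 1 spread for all genes and changes in HD-homo libraries only. Of 192 changed genes tested there, 161 were called for HD-homo against control, with 6 false calls. Far fewer genes were changed in it than passed in these data, so it does not test the calls in this setting. Alternatives used DESeq2 1.42.0 (size factors, Wald test), library totals, other filters, only the 2 lines compared, a replicate block, other thresholds and leaving out each library.

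All members of the small families are named, with 8 preset J proteins and, per comparison, the 5 largest changes each way among J proteins past the threshold, without overlap and at 1 CPM or more. Of the other lists, the largest change each way against control cells is named, except where it is not reported here. Hspbp1 and Hspbap1 fall under the prefix Hspb. The members and lists were chosen with earlier results of these data known. Positions, exon lengths, overlaps and shared 50-base words come from GENCODE M21 (GRCm38), and promoters from RefSeq.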

Additional observations from a re-analysis of the deposited data

Results flagged for a closer look

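For 10 members the log2 fold changes against control cells had opposite signs in the HD lines, both past the threshold, and the HD lines themselves differed past it (edgeR's quasi-likelihood test). This is 12.5% of the 80 members tested, and 14.5% of all genes tested met the same conditions. Those higher in HD-het and lower in HD-homo cells were Hspb6 with -2.58 between the lines (0.76 and -1.82 against control cells, adjusted p = 5e-09), Hspb1 with -2.53 (0.56 and -1.97, adjusted p = 6.3e-10), Dnajb5 with -1.76 (0.89 and -0.88, adjusted p = 2.3e-07), Dnajb9 with -1.39 (0.62 and -0.77, adjusted p = 7.4e-06) and Bag2 with -1.19 (0.16 and -1.03, adjusted p = 5.9e-09). Smaller differences of the same kind were those of Dnajc18 with -0.81 (0.42 and -0.39, adjusted p = 2.7e-06) and Dnajb14, an ER membrane protein named after its values were seen, with -0.52 (0.26 and -0.25, adjusted p = 2.2e-05). The reverse order was seen for Dnajc2 with 0.99 (-0.45 and 0.54, adjusted p = 3.5e-07), Hspbap1 with 0.92 (-0.51 and 0.41, adjusted p = 5.8e-06) and Dnaja2 with 0.62 (-0.37 and 0.25, adjusted p = 8.8e-06). For Bag2 the increase in HD-het cells was lost without control replicate 1 (adjusted p = 0.085), control replicate 2 (0.0672), HD-het replicate 1 (0.057) or HD-het replicate 3 (0.0523). Both HD lines were compared with the same control libraries, and 1 line stands for each genotype. Groups of 3 libraries are too small for a search for single outlying libraries.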

How the results depend on the processing

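The counts of members past the threshold stayed within 1.5 times those reported in all alternatives but 1. When the log2 fold change also had to reach 0.5, 3 members were higher and 11 lower for HD-homo against control, 15 higher and 23 lower for HD-het against control, and 20 higher and 13 lower for HD-homo against HD-het. Leaving out 1 library gave 13 to 18 higher and 22 to 26 lower for HD-homo against control, 21 to 28 and 35 to 38 for HD-het against control, and 36 to 40 and 21 to 25 for HD-homo against HD-het. Pairs of a named member and a comparison, 195 in all, were followed over the alternatives that kept the threshold of an adjusted p under 0.05 alone. Of these pairs, 172 kept their side of it in every such alternative. In at least 1, 14 lost their call and 9 gained a call, and none with a call reversed. Other thresholds do not enter this count. The calls gained most often were those of Hspa2 (9 of 16 alternatives) and Hsf2 (6 of 16) for HD-homo against control. Deviations of same-numbered libraries correlated weakly but positively in every comparison (0.0226 to 0.245). A library correlated best with the same number of another line in 15 of 18 cases. Both values are a hint of variation shared by number, from the data only, and the main fit does not pair the libraries. With the replicate number as a block, 22 members were higher and 26 lower for HD-homo against control, 29 and 38 for HD-het against control, and 39 and 22 for HD-homo against HD-het, beside 4234 and 4138, 4750 and 4410, and 4991 and 4947 of all 13508 genes tested. Under library totals alone, the median of the class B J proteins between the HD lines was 0.03 instead of 0.00 that of the BAG proteins in HD-het cells -0.01 instead of 0.01, and that of Hsp90 in HD-homo cells 0.01 instead of 0.00. Depth limits Hspa12b, Hspb2, Dnajc22, Dnajc28 and the 10 untested members.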
